A study of Mus musculus with 2 samples.

Results

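The Notch pathway was followed through 10 genes of the mouse kidney: the ligands Dll4, Jag1 and Jag2, the receptors Notch1, Notch2, Notch3 and Notch4, and the targets Hey1, Heyl and Hes1. They were taken as a named list, 10 of the 32285 genes counted. They were described in the cell classes named from marker genes with at least 50 cells in both libraries, and in the named endothelial subtypes. Notch receptors and their ligands are both membrane proteins, so signalling passes between cells that touch. Binding of a ligand lets ADAM proteases and then gamma-secretase cut the receptor, and its freed inner part joins the DNA-binding protein RBPJ and a Mastermind coactivator to switch on genes of the Hes and Hey families of repressors. In blood vessels Dll4 and Notch1 restrain sprouting and mark arteries, Jag1 on endothelium acts on Notch3 of the smooth muscle and pericytes around it, and in the injured kidney tubule Notch activity is known to accompany repair and fibrosis.

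Cells came from mouse kidney 14 days after 1 renal artery had been clamped and released (ischaemia and reperfusion), with 4 tamoxifen injections in both groups. The control library was labelled Cre-, and the haplodeficient library Cdh5-CreERT2; Phd3f/+, that is, a tamoxifen-activated Cre driven by the promoter of the endothelial cadherin gene Cdh5 together with 1 floxed allele of Phd3 (Egln3), which encodes an oxygen-dependent prolyl hydroxylase. Whether control mice carried the floxed allele, how many animals gave a library, and which kidney was taken were not given in the labels. There was 1 library per group and a single batch for both, so differences have no replicate check, no test between groups was possible, and every interval in parentheses is a 95% interval for counting error only.

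The libraries held 134190236 (control) and 114668145 (haplodeficient) unique molecular identifiers (UMIs, each 1 captured RNA molecule), of which 8737 and 9222 barcodes were kept as cells, with medians of 8796 and 5483 UMIs. They shared 23 cell barcodes. Both libraries held 15 classes with at least 50 cells each. Their make-up differed: proximal tubule-like cells were 34.0% and 3.81% of cells, and T cell-like cells 2.05% and 11.3%, so levels were compared within classes. The median mitochondrial share of a cell's UMIs was 10.1% and 2.69% over all cells, and 3.51% and 2.28% in endothelial-like cells. In those cells (365 and 792) the 11 endothelial markers summed to 8900 and 9476 CPM, and those of pericytes or smooth muscle to 236 and 278 CPM. Egln3, the targeted gene, was at 23.5 CPM (58 UMIs, 17.8 to 30.4) and 21.1 CPM (111 UMIs, 17.4 to 25.4) in endothelial-like cells, 72.5 CPM (19 UMIs, 43.6 to 113) and 37.6 CPM (42 UMIs, 27.1 to 50.9) in their capillary-like cells, and 22.8 CPM (14 UMIs, 12.5 to 38.3) and 10.6 CPM (11 UMIs, 5.28 to 18.9) in those of the descending vasa recta. These UMIs are no check of the deletion, since a 3′ tag may lie outside the deleted part. CPM is the gene's UMIs per 1000000 UMIs summed over the cells of a class in a library. Because the method counts 3′ ends, 1 UMI stands for 1 molecule whatever the gene's length, but capture may differ between genes.

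Among the 15 classes, most members were highest in the same class in both libraries, with Jag1 as the exception. Dll4, Jag2, Notch4 and Hey1 were concentrated in endothelial-like cells. Notch3, Heyl and Hes1 were highest in pericyte or smooth muscle-like cells (Heyl was as high in an unnamed cluster), and Notch2 in monocyte-like cells. For Notch2 in the control library, neutrophil-like cells were close (285 CPM against 294 CPM). A neutrophil-like cluster led by Retnlg had more Notch2 than monocyte-like cells in both libraries. Jag1 and Notch1 were shared between the endothelium and the tubule, and Jag1 was highest in endothelial-like cells of the control library but in pericyte or smooth muscle-like cells of the haplodeficient library.

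**Figure D1:**
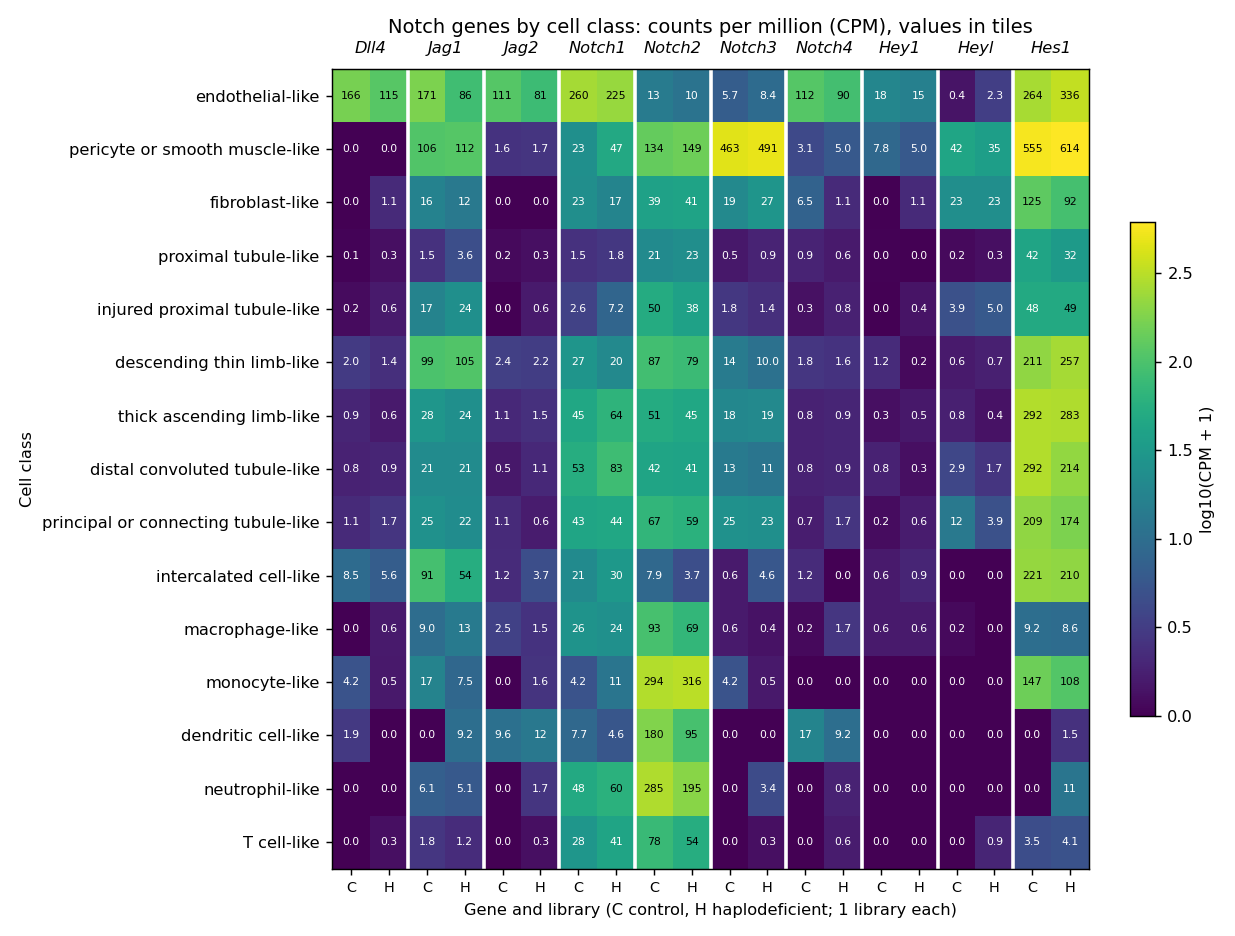
Level of the 10 Notch genes (CPM, printed in each tile and coloured on a log10 scale) in the 15 cell classes with at least 50 cells in both libraries; C is the control and H the haplodeficient library, 1 library each. The Dll4, Jag2 and Notch4 columns are bright in the endothelial-like row, Notch3 is brightest in pericyte or smooth muscle-like cells (463 and 491 CPM), and Notch2 in monocyte-like cells (294 and 316 CPM).

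Among the ligands, Dll4 (ENSMUSG00000027314, chr2:119325784-119335962, plus strand; GENCODE M21 on GRCm38, as for all positions here), the ligand of sprouting and arterial endothelium, was found mainly in endothelium. Endothelial-like cells carried 166 CPM (409 UMIs, 150.0 to 183) in the control and 115 CPM (606 UMIs, 106 to 125) in the haplodeficient library. These cells held 68.7% and 72.8% of all Dll4 UMIs in retained cells, and a further 12.9% and 15.1% lay in a small unnamed cluster of cells with both endothelial and pericyte genes. The next class, intercalated cell-like, had 8.46 and 5.58 CPM, and no Dll4 UMI was found in pericyte or smooth muscle-like cells of either library. Cells of at least 1000 UMIs were thinned to that depth and shallower ones left out (27 and 33 endothelial-like, 173 and 19 proximal tubule-like cells). Of the thinned cells, 13.6% and 10.0% of endothelial-like cells had a Dll4 UMI, against 0 of 2796 and 0 of 332 proximal tubule-like cells. Those counts allow up to 0.107% and 0.904% of cells with a UMI at that depth, which is no limit on cells that express the gene. Without thinning, proximal tubule-like cells held 2 and 1 Dll4 UMIs.

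The RefSeq promoter of Dll4 is printed because Dll4 was the member whose level differed most between the libraries in a named vessel type (capillary-like cells), and that of Notch3 because it was highest in pericyte or smooth muscle-like cells, which had no Dll4 UMI. Each run is the 250 bases before the start site, 5′ to 3′ along the gene, build GRCm38.p6. Capitals mark CACGCG or its reverse complement CGCGTG, an E-box variant that Hes and Hey repressors are known to bind.
Dll4 (chr2:119325534-119325783, plus strand): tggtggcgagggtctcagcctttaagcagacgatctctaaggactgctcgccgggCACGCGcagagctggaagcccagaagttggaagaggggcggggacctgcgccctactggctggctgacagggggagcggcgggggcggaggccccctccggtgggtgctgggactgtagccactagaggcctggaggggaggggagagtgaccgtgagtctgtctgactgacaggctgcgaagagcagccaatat
Notch3 (chr17:32166891-32167140, minus strand): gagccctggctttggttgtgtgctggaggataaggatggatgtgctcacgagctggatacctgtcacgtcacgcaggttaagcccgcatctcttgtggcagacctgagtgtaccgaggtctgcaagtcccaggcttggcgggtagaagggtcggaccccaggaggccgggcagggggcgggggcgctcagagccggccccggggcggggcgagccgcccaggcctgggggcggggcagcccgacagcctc
CACGCG or CGCGTG occurred in this window of Dll4 (1 match, beginning 195 bases before the start), Jag1 (2 matches, 249 and 171 bases before the start) and Notch2 (1 match, 42 bases before the start), that is, in 3 of the 7 members with a promoter entry, and in 7.62% of all 32851 promoters in the table. The canonical E-box CACGTG was in 0 of the 7, against 6.02% of all. TGGGAA or TTCCCA, the core bound by RBPJ, was also in 0 of the 7, against 21.6% of all promoters. The entries were for Dll4, Jag1, Jag2, Notch1, Notch2, Notch3 and Notch4; Hey1, Heyl and Hes1 had none. A match of letters describes the sequence and is not evidence of binding.

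Jag1 (ENSMUSG00000027276, chr2:137081456-137116644, minus strand), the ligand linked to smooth muscle differentiation and tubule repair, was the most widespread ligand. It was at 171 CPM (422 UMIs, 155 to 188) in the control and 85.6 CPM (450 UMIs, 77.8 to 93.9) in the haplodeficient library of endothelial-like cells. Pericyte or smooth muscle-like cells had 106 and 112 CPM, and descending thin limb-like cells 99.1 and 105 CPM. Intercalated cell-like cells had 90.7 and 53.9 CPM, while proximal tubule-like cells had 1.50 and 3.63 CPM. By molecules, the descending thin limb was the main source, with 26.6% and 30.2% of all Jag1 UMIs, against 13.3% and 12.0% from endothelial-like cells. In the control library the endothelial level stood above the next class. In the haplodeficient library endothelium (85.6 CPM) came after pericytes (112 CPM) and descending thin limb (105 CPM), and those 2 classes overlapped in their counting intervals.

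Injured proximal tubule-like cells, marked by Havcr1, Krt20 and Vcam1, had more Jag1 than proximal tubule-like cells in both libraries: 16.6 and 23.7 CPM against 1.50 and 3.63 CPM. Free RNA, profiled in barcodes of 1 to 100 UMIs, held Jag1 at 24.5 and 39.3 CPM. It was estimated to account for 6.56% and 4.29% of the Jag1 UMIs in the injured cells, and for 44.4% and 22.7% of the few in proximal tubule-like cells.

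Jag2 (ENSMUSG00000002799, chr12:112907819-112929776, minus strand), a second Jagged ligand, followed Dll4 and not Jag1 across the cell classes. Endothelial-like cells had 111 CPM (275 UMIs, 98.6 to 125) in the control and 80.8 CPM (425 UMIs, 73.3 to 88.9) in the haplodeficient library, or 65.0% and 62.5% of all Jag2 UMIs. Apart from the endothelium, dendritic cell-like cells were highest of the 15 classes, at 9.59 and 12.2 CPM (5 and 8 UMIs). Proximal tubule-like cells were at 0.166 and 0.303 CPM.

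The receptor with most UMIs differed by compartment. Of the UMIs of the 4 receptors, Notch1 made up 66.5% and 67.3% in endothelial-like cells and Notch4 28.6% and 27.0%. In pericyte or smooth muscle-like cells Notch3 made up 74.2% and 71.0%, and in monocyte-like cells Notch2 made up 97.2% and 96.4%. Tubule classes differed among themselves. Notch2 led in proximal tubule-like cells (87.9% and 87.4%), and Notch1 in intercalated cell-like cells (68.0% and 78.0%, of 50 and 41 UMIs only). That class held 171 and 109 cells. A larger, deep cluster led by Slc26a4 (308 and 237 cells), with markers of intercalated and principal cells, was left unnamed and out of it. Distal convoluted tubule-like cells held Notch1 at 49.0% and 61.2% and Notch2 at 38.3% and 29.9%.

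**Figure D2:**
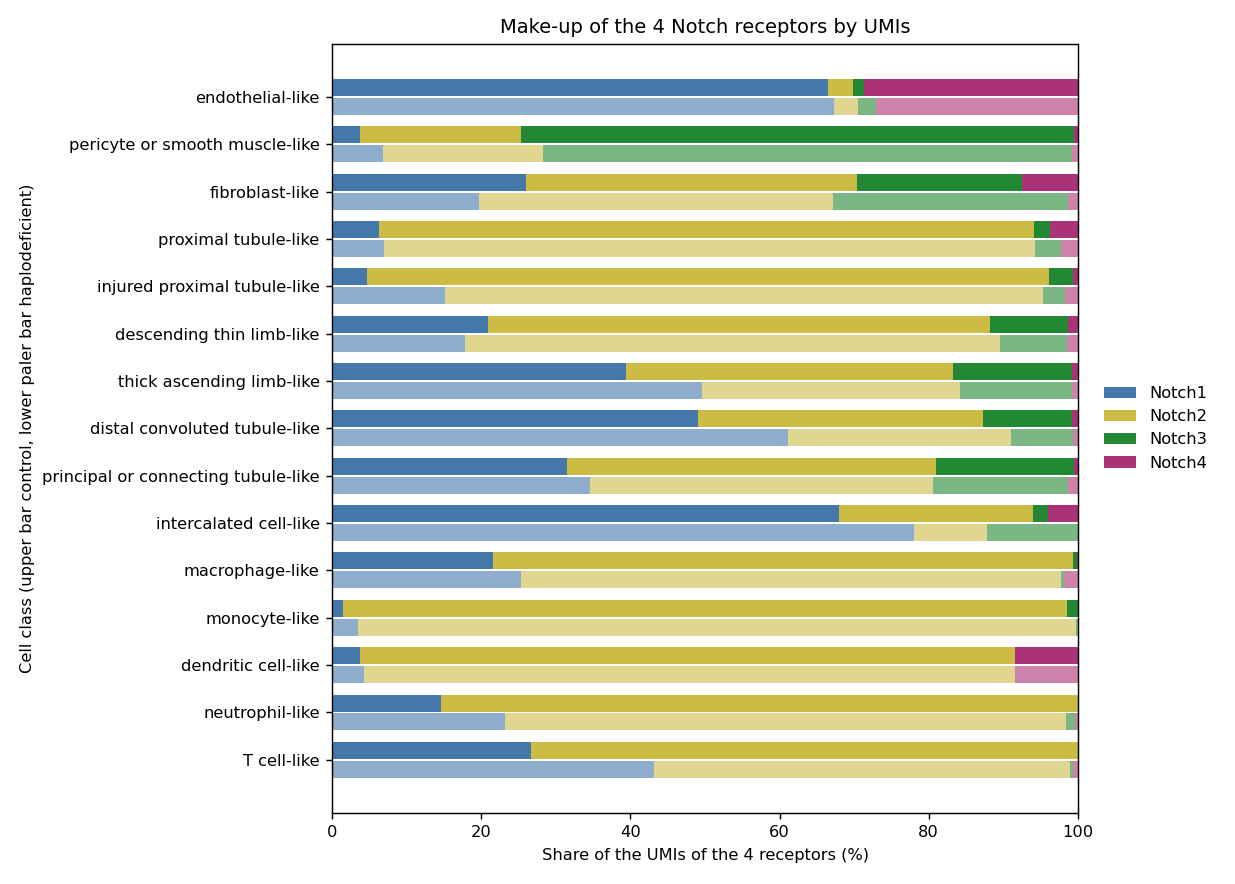
Share of each receptor (%) in the summed UMIs of Notch1, Notch2, Notch3 and Notch4, by cell class; the upper bar of a pair is the control and the lower, paler bar the haplodeficient library. Endothelial-like bars are mostly Notch1 and Notch4, pericyte or smooth muscle-like bars mostly Notch3 (74.2% and 71.0%), and leukocyte and proximal tubule-like bars mostly Notch2.

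Notch1 (ENSMUSG00000026923, chr2:26457903-26516663, minus strand), the receptor required for vessel formation and T cell development, was highest in endothelial-like cells, at 260.4 CPM (643 UMIs, 241 to 281) in the control and 225 CPM (1184 UMIs, 213 to 238) in the haplodeficient library. The next classes were far lower: distal convoluted tubule-like cells had 53.4 and 83.4 CPM, neutrophil-like cells 48.5 and 60.1 CPM and thick ascending limb-like cells 45.3 and 63.8 CPM. Proximal tubule-like cells were lowest, at 1.47 and 1.82 CPM. Of endothelial-like cells thinned to 1000 UMIs, 22.8% and 16.7% had a Notch1 UMI, against 0.0358% and 0% of proximal tubule-like cells.

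Notch4 (ENSMUSG00000015468, chr17:34564268-34588503, plus strand), a receptor known mainly from endothelium, was at 112 CPM (277 UMIs, 99.4 to 126) in the control and 90.3 CPM (475 UMIs, 82.4 to 98.8) in the haplodeficient library of endothelial-like cells, which held 62.1% and 70.4% of its UMIs. Dendritic cell-like cells came next with 17.3 and 9.16 CPM (9 and 6 UMIs).

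Notch2 (ENSMUSG00000027878, chr3:98013527-98150361, plus strand), a receptor known from marginal zone B cells, monocyte subsets and the developing nephron, was the most abundant receptor of leukocyte and proximal tubule-like classes. Monocyte-like cells had 294 CPM (70 UMIs, 229 to 372) in the control and 316 CPM (593 UMIs, 291 to 342) in the haplodeficient library. Neutrophil-like cells had 285 and 195 CPM, dendritic cell-like cells 180.3 and 94.6 CPM, pericyte or smooth muscle-like cells 134 and 149 CPM and macrophage-like cells 93.4 and 69.5 CPM. The neutrophil-like clusters differed, with 178 and 132 CPM (18 UMIs in 65 cells and 118 UMIs in 471 cells) in the one led by S100a8 and Il1r2 and 455 and 392 CPM (29 UMIs in 38 cells and 112 UMIs in 146 cells) in the one led by Retnlg. In the endothelium Notch2 was low, at 13.4 and 10.5 CPM, and free RNA was estimated to account for 11.5% and 43.7% of that. Injured proximal tubule-like cells had 50.5 and 38.1 CPM, against 20.7 and 23.0 CPM in proximal tubule-like cells.

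Notch3 (ENSMUSG00000038146, chr17:32120820-32166852, minus strand), the receptor of vascular smooth muscle, was at 463 CPM (297 UMIs, 412 to 519) in the control and 491 CPM (585 UMIs, 452 to 533) in the haplodeficient library of pericyte or smooth muscle-like cells. These 191 and 271 cells held 21.8% and 29.0% of its UMIs. The next classes were fibroblast-like (19.4 and 27.2 CPM) and principal or connecting tubule-like cells (25.1 and 23.2 CPM). Endothelial-like cells had 5.67 and 8.37 CPM. The small cluster with endothelial and pericyte genes, of 34 and 62 cells, had 356 and 319 CPM beside 133 and 96.6 CPM of Dll4, with median UMI counts of 16192 and 19633. It was left without a name and out of both classes.

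The targets divided by compartment. Hes1 (ENSMUSG00000022528, chr16:30064384-30067796, plus strand), a repressor that Notch and other signals induce, was the most abundant member. It was spread over vessel and tubule classes but low in most leukocyte classes. It was at 555 CPM (356 UMIs, 499 to 616) in the control and 614 CPM (731 UMIs, 570.1 to 660.0) in the haplodeficient library of pericyte or smooth muscle-like cells. Endothelial-like cells had 264 and 336 CPM, thick ascending limb-like cells 292 and 283 CPM and distal convoluted tubule-like cells 292 and 214 CPM. Macrophage-like cells had 9.18 and 8.65 CPM and T cell-like cells 3.53 and 4.05 CPM, where free RNA was estimated to account for 41.9% and 45.9% (macrophage-like) of the UMIs. Monocyte-like cells, in contrast, had 147 and 108 CPM.

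Hey1 (ENSMUSG00000040289, chr3:8663359-8667256, minus strand), a Notch target that helps to set arterial identity, was rare. Endothelial-like cells had 17.8 CPM (44 UMIs, 12.9 to 23.9) in the control and 15.4 CPM (81 UMIs, 12.2 to 19.1) in the haplodeficient library, 48.9% and 50.6% of all Hey1 UMIs. Pericyte or smooth muscle-like cells had 7.80 and 5.04 CPM (5 and 6 UMIs).

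Heyl (ENSMUSG00000032744, chr4:123233556-123249875, plus strand), a Hey family target known from smooth muscle, was at 42.1 CPM (27 UMIs, 27.8 to 61.3) in the control and 35.3 CPM (42 UMIs, 25.4 to 47.7) in the haplodeficient library of pericyte or smooth muscle-like cells and 22.7 and 22.7 CPM (14 and 20 UMIs) in fibroblast-like cells. In endothelial-like cells it had 1 and 12 UMIs. Heyl thus followed Notch3 across units (r 0.837) and Hey1 did not (r 0.131).

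These likenesses were Pearson correlations of log2(CPM + 5) over 36 points, the 15 classes and 3 endothelial subtypes in both libraries, which share libraries and in part cells, so they are descriptions with no p. Dll4, Jag2 and Notch4 had nearly the same profile (r 0.950 for Dll4 and Jag2, 0.950 for Dll4 and Notch4, and 0.962 for Jag2 and Notch4). Jag1 stood apart from Dll4 (r 0.626), and Notch2 ran against Dll4 (r -0.691). Among 8861 genes, those closest were Sox18, Palmd and Tal1 for Dll4 (r 0.978 to 0.976); Nos3, Sema3g and Dhh for Jag2 (r 0.970 to 0.964); and Jag2, Mmrn2 and Adcy4 for Notch4 (r 0.962 to 0.961). Closest to the more widespread members were Hspa1a, Plcd3 and Midn for Jag1 (r 0.865 to 0.858), Cr1l, Acer2 and Ier2 for Notch1 (r 0.885 to 0.865) and Thra, Strn3 and 9530026P05Rik for Hes1 (r 0.906 to 0.892). The genes closest to the others were Dock5, Nfil3 and Mxi1 for Notch2 (r 0.865 to 0.842), Dmpk, Nrtn and Smarcd3 for Notch3 (r 0.912 to 0.904), Mannr, Gm33206 and Gja5 for Hey1 (r 0.975 to 0.954) and Ogn, Ano1 and Daam2 for Heyl (r 0.916 to 0.907).

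Within the endothelium the members were layered by vessel type. Clusters made without the Notch pathway genes gave arterial-like (54 and 73 cells), descending vasa recta-like (87 and 155), capillary-like (82 and 269), glomerular-like (29 and 76) and venous or activated-like cells (21 and 36), and 2 unnamed groups, one led by Calca, Ctnnd2 and Kap (75 and 154) and one with podocyte genes (17 and 29). The descending vasa recta are the straight vessels that carry blood into the medulla.

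Jag1 was above all an arterial gene: arterial-like cells had 646 CPM (302 UMIs, 575 to 723) in the control and 446 CPM (232 UMIs, 390.1 to 507) in the haplodeficient library. Descending vasa recta-like cells had 79.9 and 96.2 CPM, and capillary-like cells 19.1 and 11.7 CPM (5 and 13 UMIs). Jag2 showed the same order, with 274 and 246 CPM in arterial-like, 79.9 and 73.1 CPM in descending vasa recta-like and 34.3 and 40.3 CPM in capillary-like cells. Dll4 was at 239 and 196 CPM in arterial-like cells. In the control library descending vasa recta-like, glomerular-like and capillary-like cells lay between 153 and 169 CPM with overlapping counting intervals, and venous or activated-like cells were at 84.2 CPM. In the haplodeficient library glomerular-like cells were at 173 CPM, descending vasa recta-like cells at 155 CPM, venous or activated-like cells at 151 CPM and capillary-like cells at 55.6 CPM.

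Notch1 was highest in arterial-like (339.9 and 288 CPM) and glomerular-like cells (258 and 305 CPM), and lower in capillary-like cells (172 and 159.5 CPM). Notch4 was at 148 and 129.8 CPM in descending vasa recta-like, 133 and 121 CPM in arterial-like and 72.5 and 62.7 CPM in capillary-like cells. Hey1 UMIs were found in 3 of the 5 named subtypes: 38.5 and 42.2 CPM (18 and 22 UMIs) in arterial-like, 19.6 and 26.9 CPM (12 and 28 UMIs) in descending vasa recta-like and 37.4 and 26.2 CPM (9 and 20 UMIs) in glomerular-like cells. Capillary-like and venous or activated-like cells had 0 Hey1 UMIs in both libraries, which in capillary-like cells allows up to 11.4 CPM in the control and 2.69 CPM in the haplodeficient library. Hes1 had another order, with capillary-like cells (351 and 456 CPM) above arterial-like cells (265 and 204 CPM). Heyl had at most 1 UMI in each named subtype of either library.

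**Figure D3:**
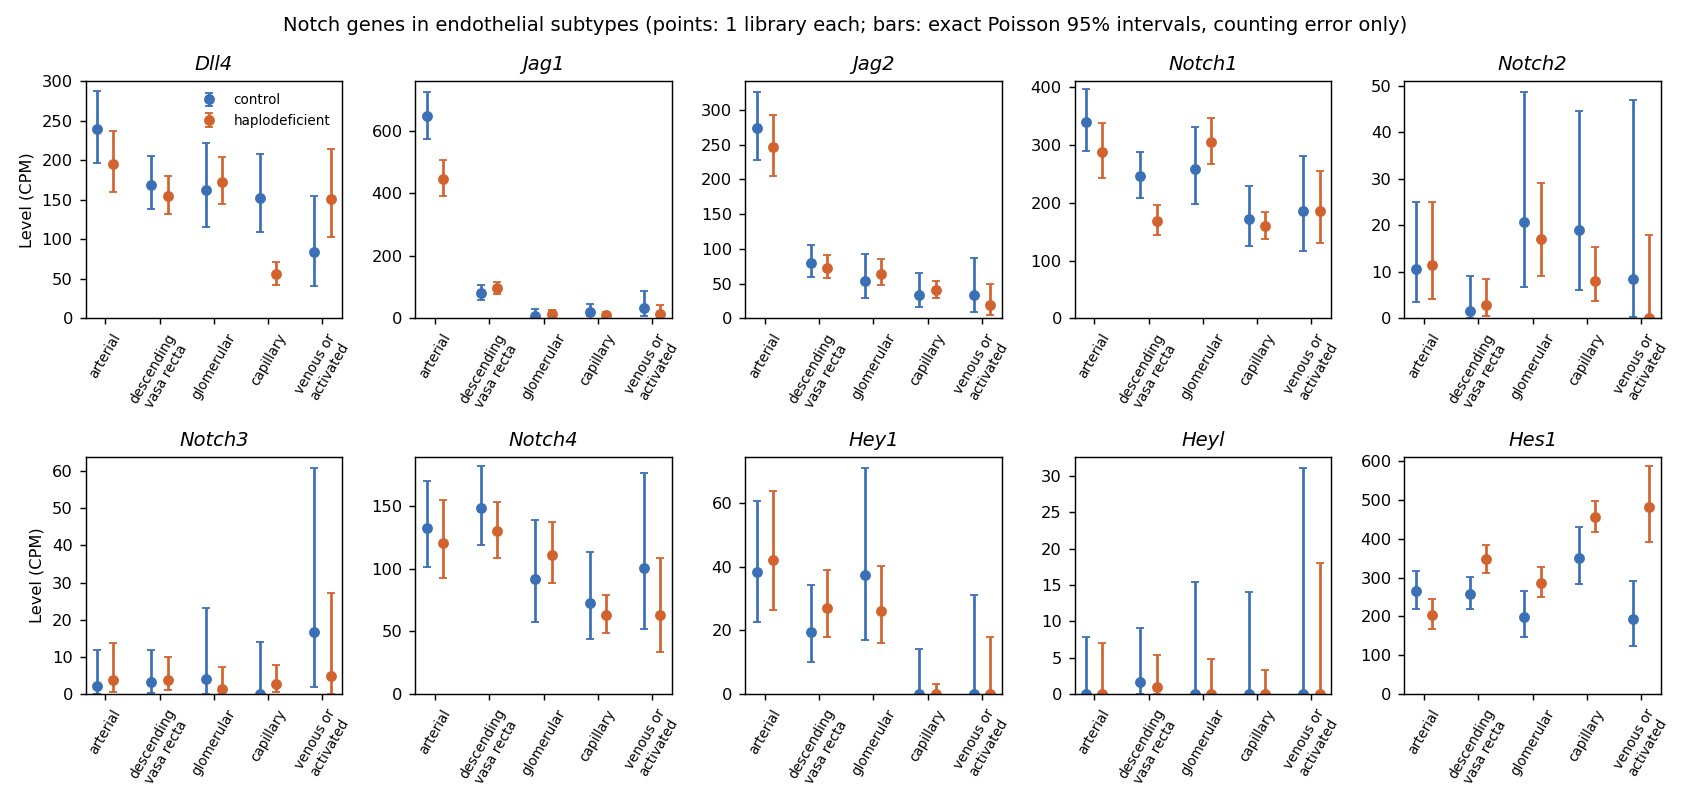
Level (CPM) of each Notch gene in 5 endothelial subtypes, 1 panel per gene with its own scale; blue points are the control and orange points the haplodeficient library, 1 library each, and bars are exact Poisson 95% intervals for counting error. Jag1 and Jag2 peak in arterial-like cells, Hey1 is at 0 in capillary-like cells, and the bars of the 2 libraries lie apart for Dll4 in capillary-like cells (153 and 55.6 CPM).

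Between the libraries, summed over all endothelial-like cells, Dll4, Jag1, Jag2, Notch1 and Notch4 were lower in the haplodeficient library and Hes1 was higher. In endothelial-like cells the CPM ratio of haplodeficient over control was 0.501 (0.437 to 0.573) for Jag1, 0.696 (0.613 to 0.791) for Dll4 and 0.726 (0.622 to 0.848) for Jag2. It was 0.805 (0.693 to 0.937) for Notch4 and 0.865 (0.785 to 0.953) for Notch1. The ratio of Hes1 was 1.28 (1.17 to 1.40), and that of Hey1 0.864 (0.592 to 1.28), an interval that holds 1. Of the 8 members with enough UMIs (a mean of at least 10 CPM and 30 UMIs over both libraries), 7 were lower and 1 was higher. None met the size rule, a log2 ratio of at least 1 in size after adding 5 CPM with intervals of the levels that do not overlap, which 0.883% of all 9172 eligible genes met. Jag1 came closest, with a log2 ratio of -0.96, and with likely doublets kept it met the rule at -1.07. For 6 of the 8 the counting interval of the ratio left out 1, as it did for 31.2% of eligible genes. The median log2 ratio of the 8 members was -0.27, and of all eligible genes -0.01. Less RNA per cell and fewer cells with the gene cannot be told apart in these sums.

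The mixture of vessel types differed between the libraries beside these ratios. Arterial-like cells made up 14.8% (11.3% to 18.9%) of endothelial-like cells in the control library and 9.22% (7.29% to 11.4%) in the haplodeficient one, and capillary-like cells 22.5% (18.3% to 27.1%) and 34.0% (30.7% to 37.4%). When each endothelial subcluster was given equal weight in both libraries, the log2 ratios were -0.40 for Jag1 in place of -0.96, -0.28 for Dll4 in place of -0.51 and -0.12 for Jag2 in place of -0.44. That weighting counts small subclusters as much as large ones, and the part of the mixture in the ratios was not tested otherwise.

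Within arterial-like cells the levels of Jag1 were 646 and 446 CPM, giving a ratio of 0.690 (0.579 to 0.822). Jag1 UMIs were present in 47 of 54 and 57 of 73 of these cells, with at most 22 and 19 in 1 cell. At a finer resolution both arterial-like subclusters were lower in the haplodeficient library: the one led by Ccn3, Tppp3 and Stmn2 had 673 and 452 CPM (263 UMIs in 30 cells and 198 UMIs in 41 cells), and the one led by Cytl1, Gkn3 and Sfrp1 508 and 272 CPM (39 UMIs in 24 cells and 37 UMIs in 34 cells). In descending vasa recta-like cells the Jag1 ratio was 1.20 (0.847 to 1.73). The Jag2 ratio was 0.898 in arterial-like, 0.915 in descending vasa recta-like and 1.18 in capillary-like cells. For Notch4 it was 0.913, 0.875 and 0.866 in the same order, and the counting interval of each of these Jag2 and Notch4 ratios held 1. None of the 7 eligible members met the size rule in arterial-like cells (1.85% of all eligible genes), and none of the 7 in descending vasa recta-like cells (2.96%). Counting intervals left out 1 for 1 of the 7 (Jag1) in arterial-like cells, against 20.3% of eligible genes, and for 2 of the 7 (Notch1 and Hes1) in descending vasa recta-like cells, against 22.2%.

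Dll4 met the size rule in capillary-like cells, the single case among the 3 named subtypes and 15 named classes compared. It was at 153 CPM (40 UMIs, 109 to 208) in the control and 55.6 CPM (62 UMIs, 42.6 to 71.2) in the haplodeficient library, which gives a ratio of 0.364 (0.241 to 0.556) and a log2 ratio of -1.38. That was 1 of 5 eligible members, where 2.18% of all 6568 eligible genes met the rule and 1.25% did so as lower. Elsewhere it was 0 of 8 in all endothelial-like cells, 0 of 7 in arterial-like and 0 of 7 in descending vasa recta-like cells. It was 0 of the 48 pairs in the other 14 classes, where 0.809% to 4.65% of eligible genes met the rule. A single case among all these pairs is no excess over those shares. Dll4 UMIs were found in 25 of 82 and 44 of 269 capillary-like cells, and no cell held more than 4. Counting intervals left out 1 for 2 of the 5 (Dll4 and Hes1), against 14.0% of eligible genes. After thinning to 1000 UMIs the shares of cells with a Dll4 UMI were 13.5% and 4.40%. Over 9 alternative settings the log2 ratio lay between -1.44 and -1.29.

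The capillary-like cells were not uniform. At the finer resolution a subcluster led by Gpr182, Tll1 and Aplnr had 92.7 and 66.3 CPM (12 UMIs in 57 cells and 22 UMIs in 131 cells) of Dll4, and one led by Rgcc, Col13a1 and Il33 had 179.6 and 40.4 CPM (16 UMIs in 16 cells and 29 UMIs in 119 cells). The larger difference was thus in a subcluster with few control cells. In the other named subtypes compared the Dll4 ratio was 0.818 (0.619 to 1.08) in arterial-like and 0.914 (0.709 to 1.18) in descending vasa recta-like cells, intervals that hold 1. In the unnamed group led by Calca, Ctnnd2 and Kap, which also carried tubule genes, Dll4 was at 129.6 and 45.0 CPM (61 and 42 UMIs). That difference was about as large as in capillary-like cells, so the lower Dll4 level was not particular to them. Unnamed groups were not put to the size rule. In the subtypes too small to compare, Dll4 was at 162 and 173 CPM (39 and 132 UMIs) in glomerular-like and 84.2 and 151 CPM (10 and 31 UMIs) in venous or activated-like cells.

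**Figure D4:**
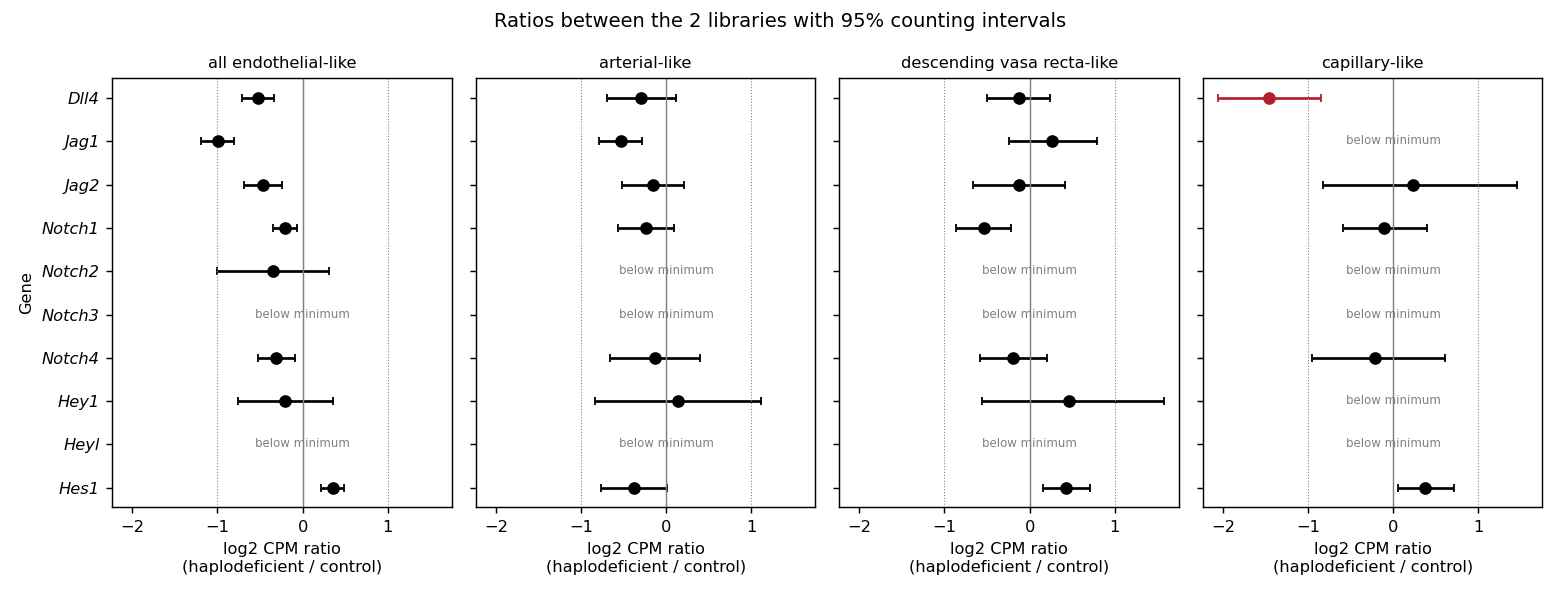
CPM ratio of haplodeficient over control (log2 axis) for each Notch gene in all endothelial-like cells and in 3 subtypes; points are ratios of 1 library to 1 library, bars exact 95% counting intervals, dotted lines ratios at log2 of -1 and 1, and genes below the minimum of 10 CPM or 30 UMIs are not drawn. Dll4 in capillary-like cells, in red, is the point beyond the size rule, and Jag1 lies at a ratio of 0.501 in all endothelial-like cells and 0.690 in arterial-like cells.

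Notch1 was lower in descending vasa recta-like cells, at 246 CPM (151 UMIs, 208 to 289) in the control and 169 CPM (176 UMIs, 145 to 196) in the haplodeficient library, which gives a ratio of 0.688 (0.550 to 0.861). Of 3 finer subclusters, 2 were lower and 1 was higher in the haplodeficient library. The one led by Astl and Lef1 had 299.6 and 169 CPM (120 UMIs in 31 cells and 64 UMIs in 24 cells), while those led by Dusp2 and by Col4a6 had 158 and 175 CPM (25 UMIs in 36 cells and 68 UMIs in 73 cells) and 183 and 153 CPM (26 UMIs in 28 cells and 51 UMIs in 65 cells). The Astl-led subcluster, with the highest Notch1 in the control library, also held fewer of the cells in the haplodeficient library. In arterial-like cells the Notch1 ratio was 0.847 (0.673 to 1.07) and in capillary-like cells 0.930 (0.667 to 1.32).

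Hes1 was higher in descending vasa recta-like (257 and 347 CPM; ratio 1.35, 1.12 to 1.64) and capillary-like cells (351 and 456 CPM; ratio 1.30, 1.04 to 1.64). In arterial-like cells the direction was the other way, at 265 and 204 CPM, with a ratio whose interval reached 1 (0.768, 0.587 to 1.00). In glomerular-like cells it was at 199.7 and 286 CPM (48 and 219 UMIs), and in venous or activated-like cells at 194 and 483 CPM (23 and 99 UMIs). The finer capillary-like subclusters went in opposite directions, with 355 and 262 CPM (46 UMIs in 57 cells and 87 UMIs in 131 cells) in the Gpr182-led and 303 and 532 CPM (27 UMIs in 16 cells and 382 UMIs in 119 cells) in the Rgcc-led one. Whether the subtypes differ in their Hes1 ratio was not tested.

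Tissue dissociation itself induces immediate-early and heat-shock genes, and 14 of these (Fos, Jun, Egr1, Atf3, Hspa1a and others, a list chosen after the data were seen) were summed beside them. They came to 22599 and 20891 CPM in endothelial-like cells, 33738 and 31900 CPM in arterial-like, 20839 and 12903 CPM in descending vasa recta-like and 11472 and 15684 CPM in capillary-like cells. They were thus lower in the haplodeficient library where Notch1 was lower, and higher in capillary-like cells where Dll4 was lower. Their part in the results was not tested.

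Outside the endothelium, 48 pairs of a member and a class had enough UMIs in 14 classes, and 0 met the size rule. The rule was met by 1.70% of eligible genes in pericyte or smooth muscle-like and 3.14% in fibroblast-like cells. In the tubule it was met by 2.52% in proximal, 0.890% in injured proximal, 1.10% in descending thin limb-like, 1.37% in thick ascending limb-like, 1.53% in distal convoluted, 1.73% in principal or connecting and 2.91% in intercalated cell-like cells. In leukocytes it was met by 0.809% in macrophage-like, 3.31% in monocyte-like, 4.65% in dendritic cell-like, 3.81% in neutrophil-like and 2.57% in T cell-like cells. The counting interval left out 1 in 19 of the 48 pairs, 6 with the haplodeficient library higher and 13 with it lower, where in each class it did so for between 14.2% and 61.9% of eligible genes.

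Around the vessel, ratios in pericyte or smooth muscle-like cells were 1.06 (0.920 to 1.22) for Notch3, 0.837 (0.504 to 1.41) for Heyl, 1.11 (0.972 to 1.26) for Hes1 and 1.05 (0.780 to 1.43) for Jag1. These 4 intervals hold 1. Notch1 had an interval that left out 1, 1 of 6 eligible members against 17.0% of eligible genes, at 23.4 and 47.0 CPM (15 and 56 UMIs), which gives a ratio of 2.01 (1.12 to 3.83). In fibroblast-like cells the interval held 1 for each of the 4 eligible members, while it left out 1 for 19.4% of eligible genes. These intervals were wide, such as 1.40 (0.673 to 3.07) for Notch3 and 0.735 (0.532 to 1.02) for Hes1. The 11 endothelial markers summed to 159 and 157 CPM in pericyte or smooth muscle-like cells, and the 14 dissociation genes to 23123 and 30022 CPM. The part of either in the Notch1 difference was not tested.

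In 2 classes of the distal nephron Notch1 was higher in the haplodeficient library. Distal convoluted tubule-like cells had 53.4 and 83.4 CPM (ratio 1.56, 1.38 to 1.77) and thick ascending limb-like cells 45.3 and 63.8 CPM (ratio 1.41, 1.28 to 1.56). In principal or connecting tubule-like cells it was at 42.7 and 44.4 CPM (ratio 1.04, 0.864 to 1.26). Counting intervals left out 1 for 2 of 5 eligible members in distal convoluted tubule-like cells, against 51.0% of eligible genes, and for 3 of 5 in thick ascending limb-like cells, against 61.9%. In thick ascending limb-like cells the ratio depended on which clusters made up the class: within the Enox1-led cluster the levels were 68.3 and 68.1 CPM (497 UMIs in 286 cells and 1092 UMIs in 541 cells), within the Egf-led cluster 10.9 and 21.6 CPM (46 UMIs in 318 cells and 13 UMIs in 53 cells) and within the Psca-led cluster 29.9 and 46.7 CPM (45 UMIs in 316 cells and 120 UMIs in 476 cells). In distal convoluted tubule-like cells the Slc12a3-led cluster had 59.8 and 91.2 CPM (375 UMIs in 456 cells and 473 UMIs in 302 cells) and the Calb1-led cluster 41.4 and 50.7 CPM (139 UMIs in 253 cells and 63 UMIs in 100 cells). The Calb1-led cluster had close naming scores, 2.42 for distal convoluted and 2.35 for principal or connecting tubule. Values of the distal convoluted class may therefore mix these segments. The dissociation genes were also higher in distal convoluted tubule-like and thick ascending limb-like cells, at 11962 and 15160 CPM and 11012 and 15967 CPM, and their part was not tested. The median mitochondrial share was 13.3% and 5.97% in distal convoluted tubule-like cells and 12.4% and 4.72% in thick ascending limb-like cells. With a mitochondrial limit of 25% the log2 ratios were 0.42 in place of 0.60 and 0.27 in place of 0.45.

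Elsewhere in the tubule the interval left out 1 for 3 of 5 eligible members in descending thin limb-like cells (54.6% of eligible genes), 1 of 5 in principal or connecting tubule-like (47.4%), 1 of 3 in intercalated cell-like (28.4%), 1 of 2 in proximal tubule-like (55.5%) and 2 of 3 in injured proximal tubule-like cells (44.3%). In descending thin limb-like cells Notch1 (ratio 0.722, 0.597 to 0.874) and Notch3 (ratio 0.736, 0.560 to 0.966) were lower. At clustering resolution 2 the log2 ratio of Notch1 there was -0.06 in place of -0.39. Hes1 was lower in distal convoluted tubule-like (ratio 0.730, 0.684 to 0.779), principal or connecting tubule-like (ratio 0.834, 0.764 to 0.911) and proximal tubule-like cells (ratio 0.760, 0.618 to 0.927), and higher in descending thin limb-like cells (ratio 1.22, 1.15 to 1.29). The distal convoluted class again included the Calb1-led cluster. In principal or connecting tubule-like cells the clusters went in opposite directions. The Sprr2f-led cluster had Hes1 at 154 and 176 CPM (248 and 543 cells), and the cluster led by Aldh1a3 and Aqp2 had it at 278 and 143 CPM (134 and 46 cells). The median mitochondrial share was 23.2% and 7.11% in proximal tubule-like and 9.46% and 5.98% in principal or connecting tubule-like cells, and its part was not tested. With a mitochondrial limit of 25% the log2 ratios of Hes1 were -0.45 in distal convoluted, -0.27 in principal or connecting and -0.49 in proximal tubule-like cells, in place of -0.44, -0.26 and -0.35. Over 8 alternative settings they lay between -0.53 and -0.42, -0.38 and -0.20, and -0.55 and -0.16, in the same order. Clusters of the proximal tubule-like class also differed in share, such as the one led by Kap and Acsm3 (260 and 5 cells). The Hes1 ratio was 0.968 (0.928 to 1.01) in thick ascending limb-like cells. Jag1 was lower in intercalated cell-like cells, at 90.7 and 53.9 CPM (ratio 0.594, 0.431 to 0.810). That class leaves out the larger unnamed cluster with intercalated cell markers. Jag1 was higher in injured proximal tubule-like cells, at 16.6 and 23.7 CPM (ratio 1.42, 1.11 to 1.82). In the same injured cells Notch2 was at 50.5 and 38.1 CPM (ratio 0.754, 0.634 to 0.894). Heyl in principal or connecting tubule-like cells was below the minimum level, at 12.4 and 3.90 CPM (55 and 25 UMIs), with a ratio of 0.314 (0.188 to 0.513). Within its clusters Heyl was at 7.66 and 3.36 CPM (19 and 20 UMIs) in the Sprr2f-led and 18.5 and 10.9 CPM (36 and 5 UMIs) in the Aldh1a3 and Aqp2-led one, so the class level also moved with the share of cells in each. In proximal tubule-like cells the median of all eligible genes was itself at a log2 ratio of 0.20, where Hes1 was at -0.35.

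Among leukocytes Notch2 was lower in the haplodeficient library in 4 of 5 classes. The ratio was 0.525 (0.375 to 0.731) in dendritic cell-like, 0.684 (0.498 to 0.957) in neutrophil-like, 0.691 (0.494 to 0.985) in T cell-like and 0.744 (0.662 to 0.836) in macrophage-like cells. In monocyte-like cells it was 1.07 (0.837 to 1.40). The neutrophil-like clusters were at 178 and 132 CPM (S100a8-led) and 455 and 392 CPM (Retnlg-led), and the Retnlg-led cluster held 38 of 103 and 146 of 617 neutrophil-like cells. Macrophage-like cells also joined clusters of differing share, such as the Ccl12-led (569 and 731 cells) and Gpnmb-led ones (169 and 404 cells). T cell-like cells joined several clusters too. The part of these mixtures in the Notch2 ratios was not tested. Notch2 was the 1 eligible member in dendritic cell-like cells, where the interval left out 1 for 27.8% of eligible genes. It was 1 of 2 in neutrophil-like (17.3%) and 1 of 2 in T cell-like cells (22.4%). In macrophage-like cells 2 of 3 members, Notch2 and Jag1, had such an interval (45.2%), and in monocyte-like cells 0 of 2 (14.2%).

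The rest of the pathway was read from 38 further genes grouped by role. In endothelial-like cells 27 had enough UMIs, 9 were higher and 18 lower in the haplodeficient library, and 0 met the size rule. Their median log2 ratio was -0.05, against -0.01 for all eligible genes. The interval of the ratio left out 1 for 8 of the 27, 2 higher and 6 lower, and for 31.2% of all eligible genes. The other ligands were scarce: Dll1 had 32 and 67 UMIs, and Dll3 had 0 and 1 UMIs. Of the fringe and other glycosyltransferases that tune ligand choice, Mfng was highest in endothelium of all classes, at 72.5 and 78.5 CPM (ratio 1.08, 0.907 to 1.30). Mib1, the ubiquitin ligase that activates ligands in the sending cell, was at 70.9 and 70.2 CPM.

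Of the 8 receptor proteases, Adam10 led in endothelial-like cells at 205 and 198 CPM (ratio 0.966, 0.868 to 1.08). Subunits of gamma-secretase had ratios on both sides of 1: Psenen was at 136 and 171 CPM (ratio 1.25, 1.10 to 1.42) and Psen2 at 53.1 and 35.8 CPM (ratio 0.674, 0.536 to 0.849). In the nuclear complex Rbpj was at 52.2 and 49.8 CPM (ratio 0.954, 0.769 to 1.19), and the coactivators Maml2 at 358 and 246 CPM (ratio 0.688, 0.631 to 0.750) and Maml3 at 192 and 167 CPM (ratio 0.872, 0.779 to 0.977). Numb, an inhibitor that sends receptors to degradation, was at 258 and 213 CPM (ratio 0.825, 0.748 to 0.911). Of the further targets, 2 had an interval that left out 1: Hey2, linked to arteries, was at 15.8 and 8.56 CPM (ratio 0.542, 0.345 to 0.854), and Nrarp, a feedback inhibitor, at 19.8 and 30.6 CPM (ratio 1.54, 1.11 to 2.17). Of the classes, Rbpj was highest in dendritic cell-like cells (671 and 529 CPM), and Hey2 in pericyte or smooth muscle-like cells (99.8 and 82.3 CPM).

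Some of the 38 met the size rule in a subtype or class, each as lower, while the shares of all eligible genes given beside them count either direction. In capillary-like cells, and in every class compared other than neutrophil-like cells, none of the eligible pathway genes met it. In arterial-like cells these were the coactivators Maml1, at 49.2 and 15.4 CPM (23 and 8 UMIs), and Maml3, at 81.2 and 26.9 CPM (38 and 14 UMIs), 2 of 20 eligible pathway genes, against 1.85% of all eligible genes. In descending vasa recta-like cells it was Psen2, at 53.8 and 24.0 CPM (33 and 25 UMIs), 1 of 20 against 2.96%. In neutrophil-like cells 2 of 18 met it, against 3.81%, among them Maml3 at 279 and 117 CPM (46 and 138 UMIs).

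Some of these counts have limits set by the annotation. Dll4, Notch1 and Notch3 overlap annotated genes on the other strand (Gm14207 for Dll4, 0610009E02Rik and Gm13568 for Notch1, and Gm17276 for Notch3), and whether the counting used strand was not given in the sources used here.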

How the data were processed

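Single-cell RNA-seq (10x Chromium 3′ v3.1) gave 1 library per group. The deposited matrices hold whole-number UMI counts per gene and barcode for every barcode. The authors used Cell Ranger 4, per the file headers, and build mm10, per the submitters' processing notes. All features were genes, so the cell hashing named in the protocols was not analysed here. Genes matched GENCODE M21 for 32158 of 32285 IDs (99.6%).

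Barcodes with at least 500 UMIs, 200 genes and at most 50% mitochondrial UMIs were kept (9452 and 10026), and the 715 and 804 with the highest doublet scores (0.8% per 1000 cells) removed. Cells were clustered with scanpy 1.11.5 and leidenalg 0.10.2 (2000 variable genes without the Notch pathway genes, 30 components, 15 neighbours, resolution 1; endothelial subclusters at 20 components and resolution 0.5) and named from marker lists, with a naming score set after seeing the data. UMIs were summed per class and library. Levels have exact Poisson intervals, ratios exact conditional binomial intervals and shares exact Clopper-Pearson intervals. A count of 0 allows 3 counts. Free RNA was profiled from barcodes of 1 to 100 UMIs. The scripts were tested on simulated data. The 10 genes, the marker lists and the pathway list were chosen with earlier results of these data known. All 10 are described, and other pathway genes are named where they met the size rule, had the highest level of their role, or, chosen after their values were seen, had a ratio interval without 1, except for a gene not reported here. The dissociation genes (Fos, Fosb, Jun, Junb, Jund, Egr1, Atf3, Ier2, Ier3, Hspa1a, Hspa1b, Dusp1, Zfp36 and Btg2), the E-box motifs and the finer subclusters were chosen after seeing the data.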

Additional observations from a re-analysis of the deposited data

How the results depend on the processing

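No paired analysis was possible because each group had 1 library and no replicate numbers. Over 119 results and 807 alternative values (UMI minimum 1000, mitochondrial limit 25%, doublets kept, Leiden resolution 2, Notch genes left in the clustering, other scaling, 1 CPM added, free RNA subtracted and others), 760 moved by less than their counting interval, 47 moved by more and 0 of the called values turned sign. Only 1 member ratio was called, Dll4 in capillary-like cells, so that 0 says nothing of the sign of the other ratios. The 9 alternatives for the endothelial subtypes were added after seeing the data. In endothelial-like cells the ratios of Hey1 (log2 -0.20 to 0.03) and Notch2 (-0.63 to 0.09), both with intervals that hold 1, took either sign. So did several ratios elsewhere, such as Jag2 in capillary-like (-0.07 to 0.56) and Notch2 in proximal tubule-like cells (-0.07 to 0.16). Weighting every endothelial subcluster equally gave log2 ratios of -0.28 for Dll4, -0.40 for Jag1 and -0.12 for Jag2. Adding 1 CPM in place of 5 gave 1.22 for Heyl, which had 1 and 12 UMIs. Genes past the size rule numbered 81, 149 with doublets kept, 131 with 1 CPM added and 27 with a minimum of 50 CPM, which tests fewer genes. Members past it numbered 0, and 1 (Jag1) with doublets kept. With doublets kept, levels were 148 and 97.8 CPM for Dll4 and 234 and 204 CPM for Notch1 in endothelial-like cells of the control and haplodeficient libraries, and in the haplodeficient library 73.5 CPM for Jag1, 72.3 CPM for Jag2 and 76.2 CPM for Notch4. In pericyte or smooth muscle-like cells they were then 369 and 391 CPM for Notch3 and 444 and 498 CPM for Hes1. Subtracting free RNA gave 239 CPM for Notch1 in endothelial-like cells of the haplodeficient library. The cause of these shifts was not tested.

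Without thinning, the shares of cells with a UMI were larger by construction. In endothelial-like cells they were 43.6% and 33.6% for Dll4, 31.0% and 25.3% for Jag1, 32.9% and 30.4% for Jag2, 55.9% and 51.8% for Notch1, 41.4% and 34.5% for Notch4, and 7.12% and 7.45% for Hey1. In pericyte or smooth muscle-like cells they were 69.1% and 73.4% for Notch3, 13.6% and 14.0% for Heyl, and 61.3% and 67.5% for Hes1, and in monocyte-like cells 67.9% and 68.6% for Notch2. Scaling by the median ratio of genes moved the median of all genes by 0.24 (log2) in proximal tubule-like, -0.16 in neutrophil-like and -0.11 in monocyte-like cells. Depth limits the subtypes most: Jag1 in capillary-like cells rested on 5 and 13 UMIs, and Hey1 in arterial-like cells on 18 and 22.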

Other observations

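Groups of cells too small or too mixed for a class carried Notch genes of their own. An unnamed cluster led by Tnc, Tagln and Cdh11, of 79 and 253 cells, had Heyl at 48.3 and 38.1 CPM (41 and 128 UMIs), which was 12.4% and 38.2% of all Heyl UMIs in retained cells. It also had Jag1 at 88.3 and 88.5 CPM and Notch2 at 60.1 and 97.1 CPM. Heyl was thus as high there as in pericyte or smooth muscle-like cells (42.1 and 35.3 CPM), with overlapping intervals.

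Urothelium-like cells, 18 and 25 in number, had the highest Jag2 outside endothelium among named classes of any size, at 69.9 and 119 CPM (15 and 28 UMIs). Their Hes1 was at 261 and 466 CPM (56 and 110 UMIs). No comparison was made for these groups.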
